A study of Bos taurus with 32 samples.

Results

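Zinc transporters and metallothioneins were followed on 32 arrays of bovine endometrium. A probe was taken when the array annotation gave it a name in the SLC39A or SLC30A family, or described it as a metallothionein or a zinc transporter, and the SLC39A2 probe ABR3709 was taken by its identifier. This gave 12 probes of 15208 that were not controls. They were 8 SLC39A probes and 4 metallothionein-named probes, and 0 SLC30A probes. SLC39A2 had been picked by its measured difference, because it was lower in RB cows in CAR of the contralateral uterine horn, so its difference there, and its mean over the whole uterus that contains that compartment, are given as descriptions with no test. Its other compartments come from the same cows, so its RB tests there are not free of that choice. Comparisons of its RB difference between compartments and between horns contain the values that chose it.

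The animals were non-lactating Japanese Black cows, sampled at Day 15 after estrus. Repeat breeder (RB) cows had failed to conceive over repeated inseminations although palpation found a healthy uterus and ovaries. Non-RB cows had conceived, and their pregnancies were ended with a prostaglandin F2α analogue before the cycle that was sampled, so the groups also differ in recent pregnancy. Caruncular endometrium (CAR), where the placenta attaches, and intercaruncular endometrium (ICAR), which carries the glands, were taken from the horn ipsilateral and the horn contralateral to the corpus luteum. There were 4 RB and 4 non-RB cows with 1 array each in 4 compartments, and the same replicate number within a group was read as the same cow. Values are log2 of the Cy3 intensity over the array's own 75th percentile, which lay between 1165 and 4857 intensity units, so a level can be compared between arrays of 1 probe but not between probes.

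Zinc cannot cross membranes unaided. SLC39A proteins, also called ZIPs, move zinc into the cytosol from outside the cell or from organelles, and SLC30A proteins, also called ZnTs, move it out of the cytosol. Metallothioneins are small proteins rich in cysteine that bind zinc and copper, and their transcription is induced by zinc through the factor MTF1 and by glucocorticoids, and metallothionein mRNA is widely used as a readout of cellular zinc.

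All members but SLC39A12 and SLC39A4 were well above background on 32 of 32 arrays. SLC39A4, the transporter of dietary zinc uptake, was well above background on 29 arrays. SLC39A12, a transporter best known from brain, was well above background on 0 of 32 and was not tested, which left 11 tested members. Over the 32 arrays SLC39A2 had 1.04 to 4.18 on the log2 scale with a median of 2.53, and SLC39A1 had 1.60 to 2.39 with a median of 2.08. The SLC39A2 probe is named by similarity to ZIP2 in the array annotation, and the reference table of gene symbols used here does not name it, whereas it names 10 of the 12 members. The fourth metallothionein-named probe, MTL5, reads a transcript similar to the testis-specific metallothionein-like 5, a cysteine-rich DNA-binding protein and not a metal-storage metallothionein.

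The probes named MT-1A (ABR1605) and MT-2 (ABR1606) are printed because their sequences decide whether they can be read as separate genes, and the capital marks the base at which they differ.
MT-1A: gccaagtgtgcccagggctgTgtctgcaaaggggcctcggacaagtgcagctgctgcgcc
MT-2: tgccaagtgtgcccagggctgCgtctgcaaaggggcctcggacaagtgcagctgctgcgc
The MT-2 probe starts 1 base upstream of the MT-1A probe, and over the 59 bases that both cover they differ by T21C, counted from 1 at the 5′ end of the MT-1A probe. Read in its cysteine-rich frame, the MT-1A probe holds 6 cysteine codons among 20 codons. RNA that binds either probe may thus also bind the other. The reference table of gene symbols gives both probes the same symbol, MT2A, and they are treated as a single metallothionein readout. Over 32 arrays their levels had an r of 0.83, or 0.95 over the 30 arrays that were not on slide 1, and their largest gap was 2.70 on the log2 scale.

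Slide 1 carried only the array of non-RB cow 2 in CAR of the contralateral horn and that of non-RB cow 1 in ICAR of the contralateral horn. Their 100 GAPDH control probes of identical sequence spread by 1.32 and 0.87 (SD, log2), against 0.12 to 0.54 on the other 30 arrays. Slide 2 carried 8 RB arrays and 0 non-RB arrays, and only slides 6 and 8 held both groups. In CAR of the ipsilateral horn no slide held both groups, so slide and group cannot be told apart there, and in the other compartments slides 6 and 8 held 1 cow of each group.

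SLC39A2 was lower in RB than in non-RB cows by its mean in all 4 compartments. The mean differences were -1.26 in CAR and -0.84 in ICAR of the ipsilateral horn, and -1.29 in CAR and -0.52 in ICAR of the contralateral horn. Of the 12919 probes tested over all arrays, 18.1% had a lower RB mean in each of the 3 compartments other than CAR of the contralateral horn. In CAR of the contralateral horn, where the probe was picked, RB cows 1 to 4 had 1.21, 2.18, 2.26 and 1.80, and non-RB cows 1 to 4 had 3.30, 3.61, 2.79 and 2.93. All RB cows lay below all non-RB cows there, as for 0.388% of the 13135 probes tested, from which nothing is read because this contrast chose the probe. The fold was 2.45. The paper names SLC39A2 in this compartment among the array results that its qPCR did not bear out.

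**Figure D1:**
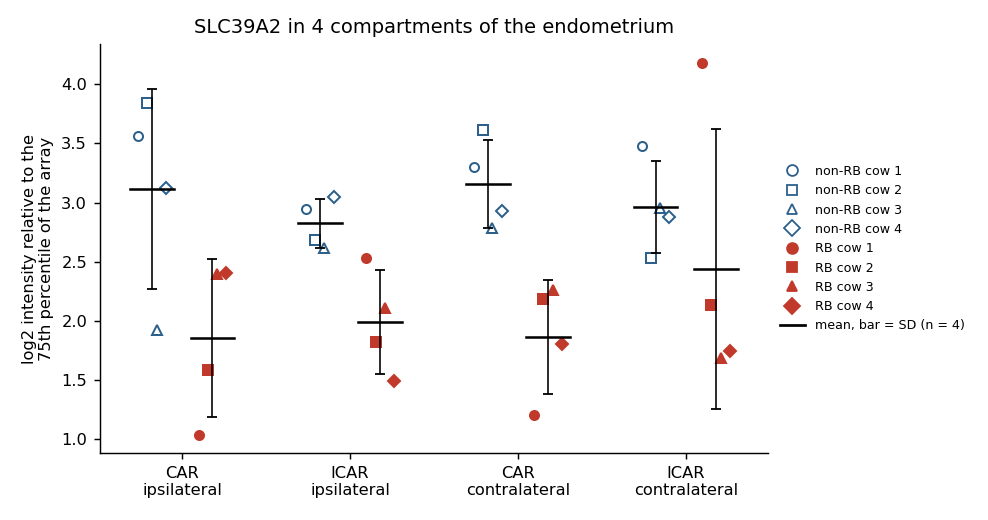
SLC39A2 level on each of 32 arrays by compartment, as log2 intensity over the array's own 75th percentile (vertical axis). Open blue points are non-RB cows, filled red points RB cows, the marker shape is the cow number, and black lines are the mean and SD of 4 cows. RB cow 1 has the lowest values in CAR and, at 4.18, the highest value of all arrays in ICAR of the contralateral horn.

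RB cows 1 to 4 had, in CAR of the ipsilateral horn, SLC39A2 levels of 1.04, 1.59, 2.39 and 2.40, and non-RB cows 1 to 4 had 3.56, 3.84, 1.92 and 3.12. Only non-RB cow 3 lay within the range of RB cows. The difference of -1.26 (SE 0.47, n = 4 against 4) had an unadjusted p of 0.022 by limma, its adjusted p was 1.0, and the exact permutation test gave 0.086. In this comparison 3.41% of 13080 probes had an unadjusted p under 0.05 and 0 had an adjusted p under 0.05. Leaving out RB cow 1, RB cow 2, non-RB cow 1 or non-RB cow 2 took the limma unadjusted p to between 0.050 and 0.068.

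In ICAR of the ipsilateral horn, RB cows 1 to 4 had 2.53, 1.82, 2.11 and 1.49, and non-RB cows 1 to 4 had 2.95, 2.69, 2.61 and 3.05. The groups did not overlap, as for 1.31% of 12889 probes with RB lower. The difference was -0.84 (SE 0.26), with a limma unadjusted p of 0.010, an adjusted p of 0.86 and an exact permutation p of 0.0286, the smallest that 4 against 4 can give. The cows are those whose contralateral CAR chose the probe, so this is not independent support. With the slide as a block the difference was -0.64 with a limma unadjusted p of 0.14, and within slides 6 and 8 it was -1.12 and -0.15 for 1 cow against 1.

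In ICAR of the contralateral horn, RB cows 1 to 4 had 4.18, 2.13, 1.69 and 1.75, and non-RB cows 1 to 4 had 3.48, 2.54, 2.95 and 2.88. RB cow 1 lay above every non-RB cow and the other RB cows lay below all of them, while 0.77% of 12980 probes were lower in RB without overlap. The difference was -0.52 (95% confidence interval -1.75 to 0.70) with a limma unadjusted p of 0.36. Without RB cow 1 it was -1.11 with a limma unadjusted p of 0.0054, and with the slide or the scan session as a block it was 0.22 or 0.039, so its direction turned with the slide or the scan session as a block and its size changed with that cow. Within slide 8, which held RB cow 1 and non-RB cow 2, the difference was 1.65, and within slide 6, which held RB cow 4 and non-RB cow 3, it was -1.21.

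The array of RB cow 1 in ICAR of the contralateral horn ranked 3 of 32 for the summed level of 6 epithelial marker probes and 2 of 32 for 4 gland marker probes. Its ranks for the other marker lists ran from 8 for red blood cells to 27 for B and plasma cells. The ICAR array of this cow in the ipsilateral horn ranked 4 and 3 for epithelium and glands, with SLC39A2 at 2.53. Non-RB cow 1 in ICAR of the contralateral horn ranked 1 for both, with SLC39A2 at 3.48. The B and plasma cell sum was -0.76 on the array at 4.18, against 3.87 in ICAR of the ipsilateral horn of RB cow 1. In CAR of that cow it was 2.49 in the ipsilateral and 2.70 in the contralateral horn. Whether cell makeup goes with the level of 4.18 was not tested. Over the 32 arrays the summed epithelial markers, which include keratins and EPCAM, had an r of 0.49 with SLC39A2, and their level ran from 3.62 to 5.46 with a median of 4.78 on RB arrays and from 4.25 to 6.22 with a median of 5.01 on non-RB arrays. All 6 epithelial and all 7 stromal marker probes were well above background on every array, as the endometrial label implies. The summed level of 3 B and plasma cell probes had an r of -0.48 with SLC39A2, with medians of 2.14 on RB and 0.58 on non-RB arrays. Only 2 of these 3 probes were well above background on every array, and the sum does not speak for each probe. Their median RB minus non-RB difference was -0.34 and -0.45 in CAR and ICAR of the ipsilateral horn. It was 0.18 and 0.40 in CAR and ICAR of the contralateral horn. The part of cell makeup in the SLC39A2 difference was not tested, and in such bulk tissue fewer cells of a type and less RNA per cell cannot be told apart.

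Ordered by mean, the 4 non-RB groups stood above the 4 RB groups, from 3.16 ± 0.37 (SD, n = 4) in non-RB CAR of the contralateral horn to 1.86 ± 0.67 in RB CAR of the ipsilateral horn. Each neighbouring pair in that order was separated by less than its pooled SD, the widest gap being 0.45 between RB ICAR of the contralateral and of the ipsilateral horn. Averaged over the 4 arrays of a cow, RB cows 1 to 4 had 2.24, 1.93, 2.11 and 1.86, and non-RB cows 1 to 4 had 3.32, 3.17, 2.57 and 2.995. The cow means did not overlap and differed by -0.98, and 0.534% of probes were lower in RB without overlap by the same measure. The order of the groups and these cow means both include the compartment that chose the probe, so nothing is read from them.

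No member, SLC39A2 included, had an adjusted p under 0.05 in a tested comparison of RB with non-RB cows. Of the 10 tested members other than SLC39A2, 0 had a limma unadjusted p under 0.05 in any of the 4 compartments or in the whole uterus, where 3.41%, 3.69%, 1.74%, 1.60% and 2.22% of all probes did in CAR and ICAR of the ipsilateral horn, CAR and ICAR of the contralateral horn and the whole uterus. Their smallest unadjusted p was 0.088, for MT3 in CAR of the ipsilateral horn. The median difference of the 10 members was 0.016 and -0.022 in CAR and ICAR of the ipsilateral horn and 0.19 and -0.11 in CAR and ICAR of the contralateral horn, against 0.020, -0.027, 0.0011 and 0.021 over all probes tested.

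**Figure D2:**
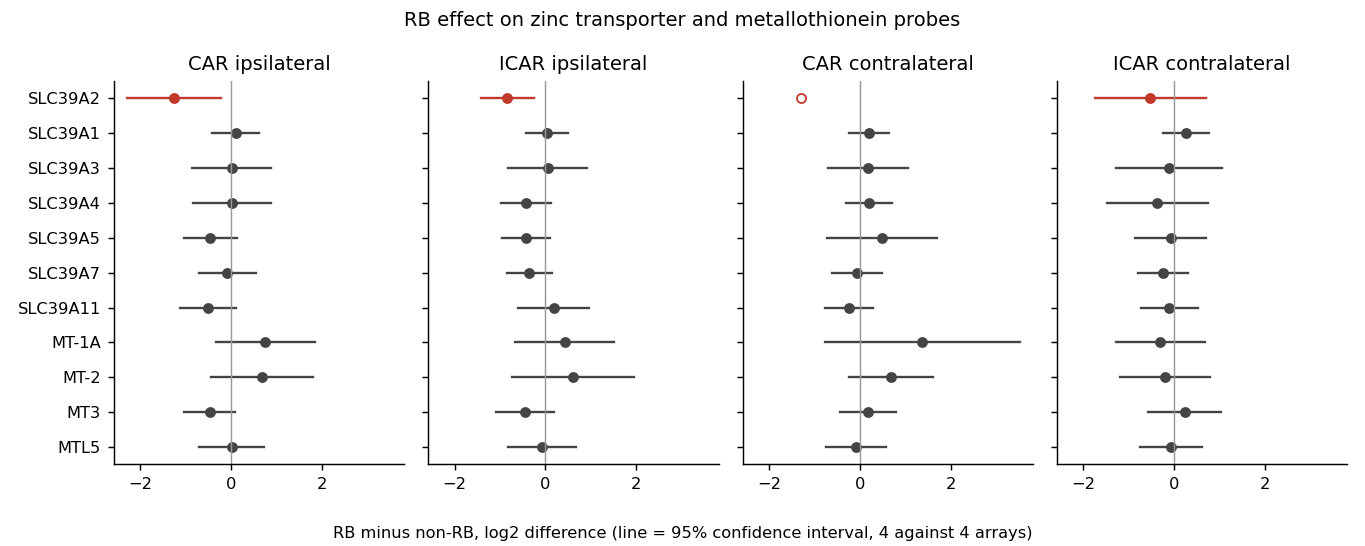
RB minus non-RB log2 difference (horizontal axis) of the 11 tested members in each of the 4 compartments. Points are differences of means of 4 against 4 arrays and lines are 95% confidence intervals from limma, with no interval for SLC39A2 in CAR of the contralateral horn (open point), which chose the probe. SLC39A2, in red, lies left of 0 in each panel, and the intervals of the other 10 members all cross 0.

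SLC39A1, the widely expressed plasma membrane importer ZIP1, had the tightest values of all members. It ranged over 0.80 on the log2 scale across 32 arrays, and its RB minus non-RB differences lay between 0.038 and 0.25, so its RB mean was the higher in 4 of 4 compartments, as for 15.6% of probes. Within slides 6 and 8 it was lower in RB in 3 of the 4 ICAR differences of 1 cow against 1, between -0.37 and 0.28. In CAR of the contralateral horn, RB cows 1 to 4 had 2.13, 2.24, 2.11 and 2.17 against 1.97, 1.74, 2.12 and 2.01 in non-RB cows 1 to 4. Only non-RB cow 3 reached the RB range, and the exact permutation p was 0.057. SLC39A7, which releases zinc from the endoplasmic reticulum and Golgi, was lower in RB by its mean in 4 of 4 compartments, with differences of -0.36 to -0.067 and confidence intervals that included 0 in each. Within slides 6 and 8 its differences ran from -0.66 to 0.39. SLC39A11, a Golgi member of the family, differed by -0.50 (95% confidence interval -1.12 to 0.12) in CAR of the ipsilateral horn and by 0.18 in ICAR of the same horn. The first was -0.70 when arrays were blocked by scan session, with a limma unadjusted p of 0.017, and the second was 0.97 when blocked by slide, with a limma unadjusted p of 0.032.

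SLC39A5, a basolateral zinc importer of the gut and pancreas, was low on these arrays, with a median of -3.81. It had, in CAR of the ipsilateral horn, -3.96, -4.12, -3.99 and -3.90 in RB cows 1 to 4 and -3.73, -3.80, -3.68 and -2.95 in non-RB cows 1 to 4. It had, in ICAR of that horn, -3.81, -3.74, -4.54 and -3.78 in RB cows and -3.55, -3.49, -3.72 and -3.41 in non-RB cows. RB cows lay below all non-RB cows in both, as did 1.27% and 1.31% of all probes, and both exact permutation tests gave 0.0286, whereas limma gave an unadjusted p of 0.11 and 0.10 and adjusted p of 1.0 and 0.86. The difference in ICAR of the ipsilateral horn was -0.42, and it was -0.19 with the slide as a block and -0.23 without RB cow 3, and within slides 6 and 8 it was -0.054 and -0.33. It was -0.45 in CAR of that horn, and -0.26 without non-RB cow 4. In the contralateral horn the groups overlapped, and the differences were 0.50 in CAR and -0.081 in ICAR.

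SLC39A3 and SLC39A4, further plasma membrane importers, differed by -0.11 to 0.18 and by -0.43 to 0.21. Each confidence interval included 0. SLC39A3 had -4.59, -5.02, -5.08 and -5.05 on the 4 arrays of RB cow 4, all on slide 6. The 12 arrays of the other RB cows had -4.14 to -3.21. Non-RB cow 3 had -4.82, -5.02 and -5.04 on its slide 6 arrays, and -4.49 in CAR of the ipsilateral horn, on slide 5. All slide 6 arrays came from these cows, so cow and slide cannot be told apart on it.

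A further 3 zinc transporter probes that carry their family name in another column of the annotation were looked at beside the members. The only exporter, SLC30A3, known from synaptic vesicles, differed by -0.95 to 0.21, and its smallest limma unadjusted p was 0.083. Both SLC39A14 probes, which read the importer ZIP14 that is induced in inflammation, were higher in RB by their mean in 4 of 4 compartments, as were 15.6% of probes, by 0.36 to 0.73 and by 0.18 to 1.11, with a limma unadjusted p of 0.10 for each in the whole uterus. On non-RB cow 1 in ICAR of the contralateral horn, a slide 1 array, these probes were at -5.60 and -8.66. Without that cow the differences there fell from 0.73 and 1.11 to 0.082 and 0.065, and with the slide as a block they were -0.45 and -0.42. Within slides 6 and 8 both probes were lower in RB in 7 of 8 ICAR differences of 1 cow against 1, from -0.77 to 0.35, and higher in all 4 such CAR differences of the contralateral horn, from 0.51 to 0.97.

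Metallothionein mRNA had a higher mean in RB cows in 3 of 4 compartments for both probes, with no called difference. The probes are a single readout, so this is no count of separate genes. For 1 cow against 1, the MT-2 difference ran from -0.64 to -0.20 within slide 6 and from -1.67 to 1.36 within slide 8. MT-2 had, in CAR of the ipsilateral horn, 0.38, 0.32, -0.14 and -1.10 in RB cows 1 to 4 and 0.40, -1.94, -0.65 and -1.09 in non-RB cows 1 to 4. In ICAR of the ipsilateral horn it had -0.96, 0.21, 0.78 and -1.37 in RB cows and 0.12, -2.32, -0.73 and -0.83 in non-RB cows. The groups overlapped in both, and the lowest value in each belonged to non-RB cow 2.

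MT-2 had, in CAR of the contralateral horn, 0.15, -0.20, 0.65 and -0.49 in RB cows 1 to 4 and -0.10, -1.77, -0.23 and -0.54 in non-RB cows 1 to 4. It had, in ICAR of that horn, -2.01, -0.19, 0.15 and -0.94 in RB cows and -0.46, -0.34, -0.74 and -0.63 in non-RB cows. RB cow 1 was the lowest there, on the same array on which its SLC39A2 was the highest.

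**Figure D3:**
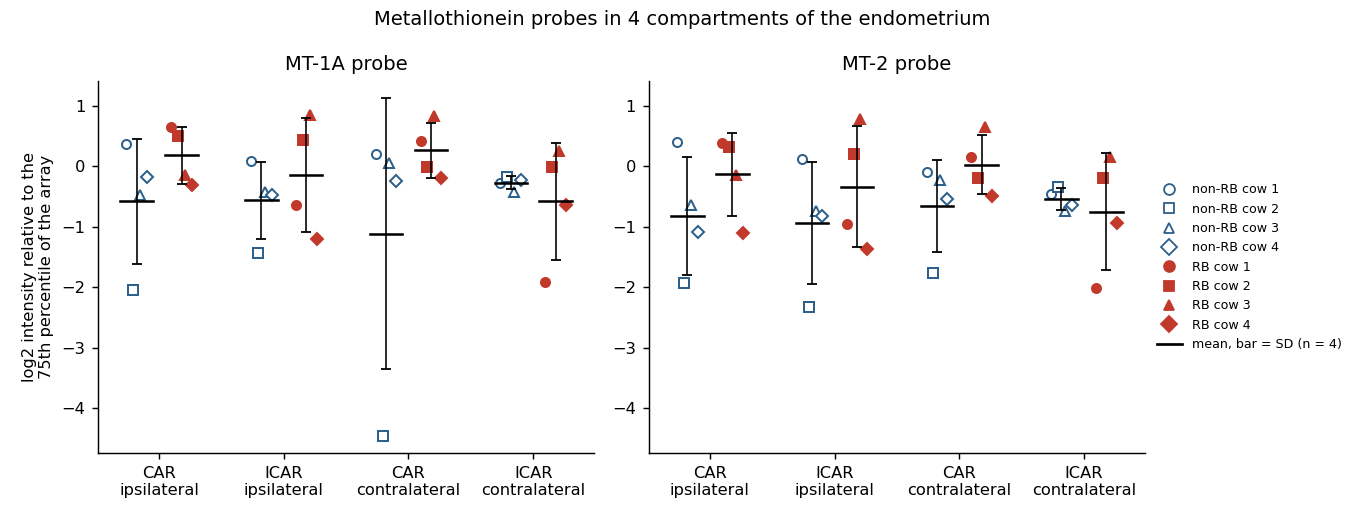
Levels of the MT-1A and MT-2 probes on each array by compartment, as log2 intensity over the array's own 75th percentile (vertical axis, the same range in both panels). Open blue points are non-RB cows, filled red points RB cows, and black lines are the mean and SD of 4 cows. Non-RB cow 2 is low in 3 of its compartments, and its MT-1A value of -4.46 is from slide 1.

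The MT-2 differences were 0.68, 0.61, 0.69 and -0.20 in CAR and ICAR of the ipsilateral horn and CAR and ICAR of the contralateral horn, with SEs of 0.50, 0.60, 0.41 and 0.44 and limma unadjusted p between 0.13 and 0.65. The MT-1A differences were 0.76, 0.42, 1.38 and -0.30, with limma unadjusted p between 0.15 and 0.50. In CAR of the contralateral horn the MT-1A value of -4.46 in non-RB cow 2 is the slide 1 array, on which MT-2 read -1.77. Without that cow the 2 differences were 0.26 and 0.32, and with the slide as a block they were -0.0090 and -0.0055. The MT-2 difference of 0.68 in CAR of the ipsilateral horn was 0.31 without non-RB cow 2 and 1.09 without non-RB cow 1, with a limma unadjusted p of 0.037 for the latter. Leaving out non-RB cow 2 in ICAR of the ipsilateral horn took the MT-2 difference from 0.61 to 0.15. In ICAR of the contralateral horn MT-1A differed by -0.92 with the scan session as a block, with a limma unadjusted p of 0.045.

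MT3, a metallothionein best known from neurons, was well below the 75th percentile, with a median of -2.88. Its RB minus non-RB differences were -0.47 and -0.45 in CAR and ICAR of the ipsilateral horn and 0.18 and 0.23 in CAR and ICAR of the contralateral horn. RB cows 1 to 4 had, in CAR of the ipsilateral horn, -3.16, -3.22, -3.43 and -2.74 and non-RB cows 1 to 4 had -2.95, -2.59, -2.47 and -2.66. RB cow 4 lay within the non-RB range, and the other RB cows lay below it. With the slide as a block the difference in ICAR of the ipsilateral horn was -0.11. MTL5 differed by -0.081 to 0.015, the narrowest range among the 11 tested members.

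No difference between CAR and ICAR was called among the members in the main fit, which had no cow term and so did not use the pairing within cows. Of the 10 tested members other than SLC39A2, 0 had a limma unadjusted p under 0.05 for CAR minus ICAR on 32 arrays, against 16.2% of 12919 probes, and 0 had an adjusted p under 0.05, against 1.35%. The last share varied with the fit: 174 probes had an adjusted p under 0.05 here, and 0 to 1086 under other settings. SLC39A2 differed by -0.055 (95% confidence interval -0.49 to 0.38) and was higher in CAR in 5 of 8 cows. Its differences per cow, averaged over horns, were -2.24, -0.092, 0.43 and 0.48 in RB cows 1 to 4 and 0.22, 1.12, -0.43 and 0.062 in non-RB cows 1 to 4. RB cow 1 stood apart here through its ICAR array of the contralateral horn, and without this cow the difference was 0.26. MT-2 differed by 0.25 (95% confidence interval -0.29 to 0.78) and MT-1A by 0.074.

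SLC39A1 was the member nearest to a difference between CAR and ICAR. It was higher in CAR by 0.15 (95% confidence interval -0.0087 to 0.31) in 6 of 8 cows, with a limma unadjusted p of 0.063 and an adjusted p of 0.35. With the cow as a block, which pairs the arrays of an animal, its limma unadjusted p was 0.036, and the exact permutation test over cows gave 0.047.

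Between the horns, ipsilateral minus contralateral, SLC39A2 differed by -0.16 (95% confidence interval -0.60 to 0.28), with the ipsilateral horn higher in 4 of 8 cows. Of the 10 other members, 0 had a limma unadjusted p under 0.05 in this comparison, against 1.36% of probes, and their differences lay between -0.14 for MTL5 and 0.27 for SLC39A5. This fit also had no cow term. On the 30 arrays off slide 1, SLC39A4 was higher on the ipsilateral side by 0.33 with a limma unadjusted p of 0.049.

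The RB difference was then compared between compartments and between horns on the differences within each cow. For SLC39A2 the RB difference in CAR minus that in ICAR was -0.60 (95% confidence interval -1.90 to 0.71), and 0.031 without RB cow 1. The RB difference in the ipsilateral minus that in the contralateral horn was -0.14 (95% confidence interval -0.81 to 0.53). Both contain the arrays of CAR of the contralateral horn that chose the probe, so no conclusion is drawn from their tests. Neither passed, with limma unadjusted p of 0.33 and 0.66, and intervals of this width do not show that the RB difference was the same throughout. Of the other 10 members, 0 had a limma unadjusted p under 0.05 for CAR against ICAR, where 0.867% of probes did, and 2 did for the horns, where 6.03% did.

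These 2 members were MT3 and SLC39A5. The ipsilateral minus contralateral difference of MT3 was 0.81, 0.70, 0.36 and 0.21 in non-RB cows 1 to 4 and -0.29, -0.084, -0.21 and 0.0016 in RB cows 1 to 4. The groups did not overlap, as for 2.64% of probes with RB lower, and the highest RB cow was close to 0. The RB difference of MT3 in the ipsilateral minus that in the contralateral horn was -0.66 (SE 0.19, limma unadjusted p of 0.0054, adjusted p of 0.79, exact permutation p of 0.0286). Without the arrays of slide 1, which are contralateral arrays of non-RB cows 1 and 2, it was -0.38 with a limma unadjusted p of 0.047, and with normexp background correction it was -0.39 with a limma unadjusted p of 0.063.

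For SLC39A5 the difference between horns was 0.91, 1.23, 0.050 and 0.18 in non-RB cows 1 to 4 and 0.053, 0.12, -0.24 and -0.15 in RB cows 1 to 4. The 2 highest cows are those with an array on slide 1. Between the horns the RB difference of SLC39A5 differed by -0.65 (SE 0.27, limma unadjusted p of 0.041, adjusted p of 0.79, exact permutation p of 0.086). Without slide 1 it was -0.26 with a limma unadjusted p of 0.18.

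**Figure D4:**
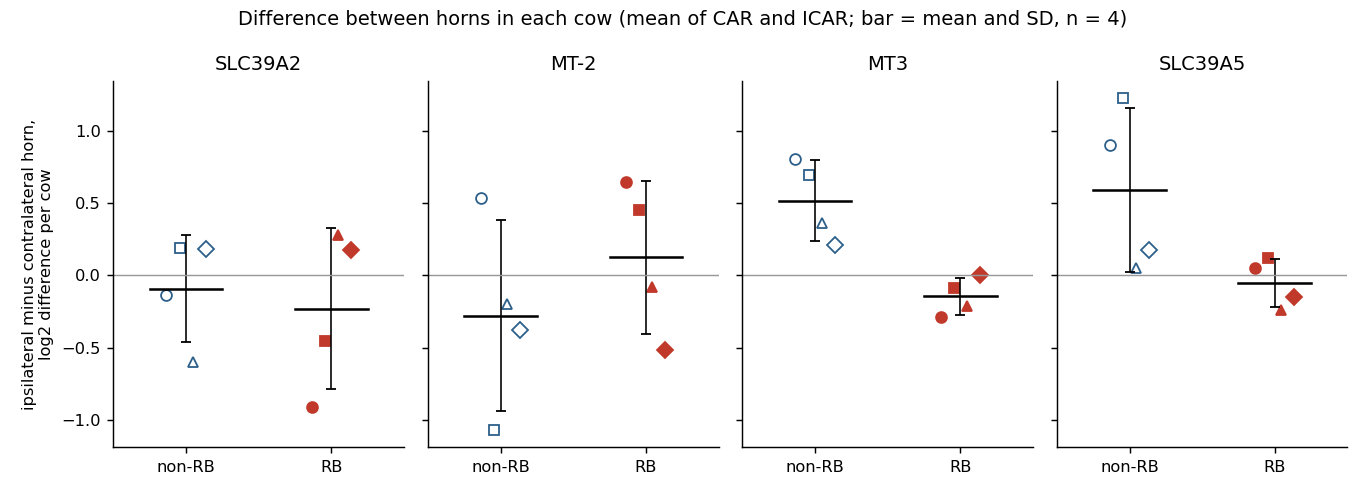
Ipsilateral minus contralateral log2 difference (vertical axis) in each cow for SLC39A2, MT-2, MT3 and SLC39A5, averaged over CAR and ICAR. Open blue points are non-RB cows, filled red points RB cows, the marker shape is the cow number, and black lines are the mean and SD of 4 cows. For MT3 the 4 non-RB cows lie between 0.21 and 0.81 and the 4 RB cows between -0.29 and 0.0016, and for SLC39A5 non-RB cows 1 and 2, with arrays on slide 1, lie highest.

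The likeness of each probe to SLC39A2 was described by Pearson's r over 32 arrays, which are not independent because 4 arrays share a cow and up to 8 a slide. Over 12918 other probes the median r was -0.013, and 90% of them lay between -0.40 and 0.43. SLC39A11 (0.41) and SLC39A4 (0.31) had the highest r among members, both inside that range. SLC39A1 (-0.53), MT-1A (-0.50) and MT-2 (-0.47) had the lowest, and fewer than 3% of probes lay below each of them. The other members lay between -0.21 for MTL5 and 0.17 for SLC39A7.

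The negative r of the metallothionein probes with SLC39A2 varied with the arrays used. On the array with the highest SLC39A2 level, that of RB cow 1 in ICAR of the contralateral horn, MT-2 was at -2.01, and on the array with the lowest, that of the same cow in CAR of the ipsilateral horn, it was at 0.38. The r of MT-2 was -0.56 within RB arrays and -0.13 within non-RB arrays, and leaving out 1 cow at a time it ran from -0.65 without non-RB cow 1 to -0.31 without RB cow 1. It was -0.36 when each group of 4 arrays was centred on its mean. SLC39A1 had an r of -0.50 in that centred form, and -0.39 and -0.49 within RB and within non-RB arrays. Both SLC39A14 probes also had negative r, of -0.51 and -0.47.

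**Figure D5:**
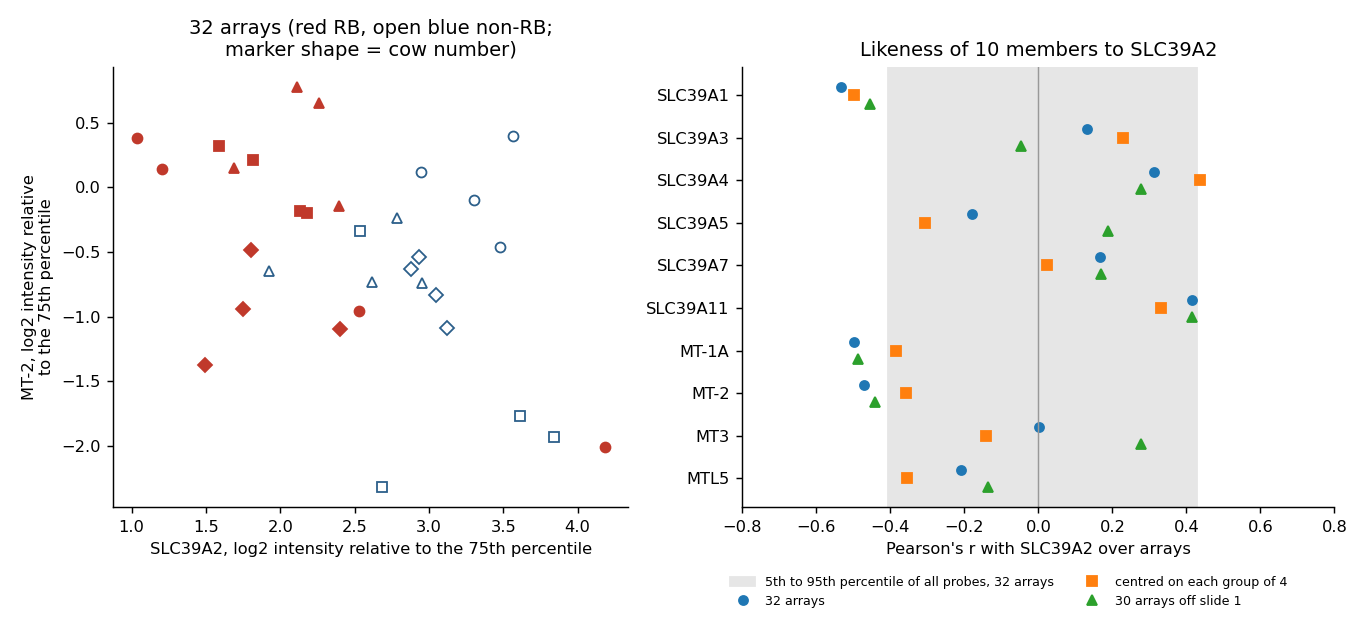
Left, MT-2 level (vertical axis) against SLC39A2 level (horizontal axis) on 32 arrays, both as log2 intensity over the array's own 75th percentile, with RB in filled red, non-RB in open blue and the marker shape giving the cow number. Right, Pearson's r of 10 members with SLC39A2 over 32 arrays, over the same arrays centred on each group of 4, and over the 30 arrays off slide 1, with the 5th to 95th percentile of all probes in grey. SLC39A1 and both metallothionein probes lie left of the grey band over 32 arrays. The band comes from the 32 arrays without centring, so the centred values are not to be judged against it.

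The 5 probes most like SLC39A2 of all those tested were an unnamed transcribed locus (ABR7261, r = 0.76), METTL17 (ABR4181, 0.75), which encodes a mitochondrial methyltransferase-like protein, a locus similar to nephronectin (ABR4960, 0.74), CHGA (ABR73, 0.73), which encodes chromogranin A of secretory granules, and VLDLR (ABR379, 0.73), the very low density lipoprotein receptor. Each kept an r of at least 0.58 with the groups centred. They were taken as the highest of 12918 values and are a description. The uncentred r includes the RB difference that chose SLC39A2. The paper lists CHGA as lower in RB over the whole uterus, and VLDLR as lower in CAR of the contralateral horn.

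Genes that use, carry or sense zinc outside these families had a median RB minus non-RB difference of -0.62 and -0.37 in CAR and ICAR of the ipsilateral horn, and of -0.12 and 0.027 in CAR and ICAR of the contralateral horn, against 0.020, -0.027, 0.0011 and 0.021 over all probes. Of 21 listed genes 12 had a probe, and in ICAR of the ipsilateral horn 2 of 10 tested probes were lower in RB at a limma unadjusted p under 0.05, against 1.45% of all probes in that direction. They were CA2, the zinc enzyme carbonic anhydrase 2, at -1.17 (SE 0.42), and ALPL, the zinc enzyme alkaline phosphatase, at -0.79 (SE 0.35), with an adjusted p of 0.86 for each. The gene lists here and below were chosen with earlier results of these data known. The paper lists CA2 as lower in RB in this compartment on the same arrays, so this count is a description. In CAR and ICAR of the contralateral horn, in CAR of the ipsilateral horn and in the whole uterus the count was 0. Over the arrays the r of 10 probes of this list with SLC39A2 ran from -0.25 for CA4 to 0.57 for ALPL, with 5 below 0, 5 above 0 and a median of 0.034, and that of CA2 was 0.56.

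Genes of iron and copper handling, 19 listed and 13 with a probe, gave 0 to 2 of 14 tested probes at an unadjusted p under 0.05 in any RB minus non-RB comparison, where 1.60% to 3.69% of all probes passed, and 0 at an adjusted p under 0.05. The largest of these were the 2 probes of LTF, which encodes the iron-binding protein lactoferrin, at -1.68 and -1.88 in ICAR of the contralateral horn, with a limma adjusted p of 1.0 for each. The paper also lists LTF as lower in RB there. CYBRD1, an iron-reducing enzyme, had a CAR minus ICAR difference of -0.90 (SE 0.24), with a limma adjusted p of 0.049, as 1.35% of probes had an adjusted p under 0.05 in that comparison. The fit had no cow term. Among 14 listed inducers of metallothionein and steroid-response genes, 10 had a probe, and the only one at an unadjusted p under 0.05 in an RB minus non-RB comparison was PGR, the progesterone receptor, with a difference of 0.54 in ICAR of the contralateral horn, where 1.60% of all probes passed.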

How the data were processed

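The authors hybridized Cy3-labelled cRNA of 32 endometrial samples to a custom bovine Agilent array and deposited the Feature Extraction output (version 9.5, per the labels), whose processed intensity is background-subtracted, and a table of log2 values. The deposited log2 values equalled that intensity in log2, scaled to each array's own 75th percentile, plus a constant of 0.0042 to 0.0140. Here that log2 value was recomputed from the intensity, with control spots and outlier flags left out. Saturated spots were kept. The percentile lay between 1165 and 4857. Precision is set by how few arrays there are.

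Each compartment was tested with limma 3.58.1, 4 RB against 4 non-RB arrays. A probe was tested if at least 2 of 8 arrays, or 8 of 32 for all arrays, read it well above background, with Benjamini-Hochberg adjustment over all probes. The whole uterus used cow means. CAR and ICAR, and the horns, were compared on 32 arrays, with group and the other factor in the fit but no cow term. The RB effect between them was compared on differences within cows. Two-sided exact permutation tests over cows were run for single probes. The fits were tested on simulated data in which every array was drawn independently, so the effect of shared cows or slides was not covered. Members, lists and tests were chosen with earlier results of these data known. All members are accounted for. Values were given for SLC39A2, each metallothionein probe, members with an unadjusted p under 0.05 in an RB comparison, those with an adjusted p under 0.05 between CAR and ICAR or between horns, the 2 brightest and 2 dimmest members and the 5 probes most like SLC39A2. Values of SLC39A3, SLC39A7 and SLC39A11 were added after they were seen, and so were the listed genes that are named. Gene symbols came from the array annotation and a RefSeq table, and no genome coordinates were used.

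Same-numbered arrays within a group were taken as 1 cow, which no source states. Their deviations correlated by 0.41 in RB and 0.38 in non-RB cows on average, above 0.1 in 22 and 21 of 24 pairs, and shared slides may add to this. RB and non-RB cows are different animals, and their arrays of the same number correlated by 0.13 on average, above 0.1 in 11 of 16 pairs, against -0.045 for unlike numbers. The numbers were not used to pair them, since no source says that a number is shared and not every pair was above 0.1. The methods' unpaired t-test, quantile normalization, normexp with an offset of 50, the deposited table, the filter, slide, scan session and replicate number as blocks, a single fit of all arrays and leaving out slide 1 or each cow were the alternatives.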

Additional observations from a re-analysis of the deposited data

Results flagged for a closer look

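Of 88 groups of 4 arrays, 8 held an array far outside the other 3 by Dixon's test, which chance flags in about 1 of 20 groups. SLC39A3 in RB cow 4 read -4.59 in CAR of the contralateral horn, where the others had -3.86 to -3.73, and -5.05 in ICAR of the ipsilateral horn, where the others had -3.92 to -3.75. Both arrays were on slide 6, where SLC39A3 was also low in non-RB cow 3. SLC39A5 read -4.54 in RB cow 3 in ICAR of the ipsilateral horn and -2.95 in non-RB cow 4 in CAR of that horn. SLC39A7 read 2.35 in non-RB cow 2 in ICAR of the ipsilateral horn, and SLC39A11 read 0.11 in RB cow 3 in CAR of the same horn. MT-1A at -4.46 and MT3 at -3.64 in CAR of the contralateral horn both came from non-RB cow 2, whose array was on slide 1.

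The RB difference of MT3 differed between the horns, by -0.66, with an exact permutation p of 0.0286 among 22 such tests of members and a limma adjusted p of 0.79. It was -0.38 without slide 1.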

How the results depend on the processing

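The count of members other than SLC39A2 at an unadjusted p under 0.05 was 0 in 8 of 9 comparisons and 1 under some alternatives. In CAR of the ipsilateral horn it was 1 with the methods' t-test (MT3) and with the scan session as a block (SLC39A11), and 0 to 1 without 1 cow. It was 1 in ICAR of the ipsilateral horn with the slide as a block (SLC39A11), 1 in ICAR of the contralateral horn with the scan session as a block (MT-1A), 1 for CAR minus ICAR with the cow as a replicate block or without slide 1 (SLC39A1) and 0 to 1 without 1 cow, and 1 between horns without slide 1 (SLC39A4) and 0 to 1 without 1 cow. For the RB difference between horns it was 2 as reported, 1 with quantile normalization, without slide 1 or with no replicate block, 0 with normexp, and 1 to 2 without 1 cow. The SLC39A2 difference passed an unadjusted p of 0.05 as reported but not with the methods' t-test in CAR of the ipsilateral horn (-1.26, unadjusted p of 0.058 by that test on 4 against 4, with no exact test), where it was -1.65 to -0.98 without 1 cow, and it did not pass when RB cow 1, RB cow 2, non-RB cow 1 or non-RB cow 2 was left out. In ICAR of the ipsilateral horn it did not pass in a single limma fit of all arrays (-0.84) or with the slide as a block (-0.64). In ICAR of the contralateral horn it was 0.22 with the slide and 0.039 with the scan session as a block, and -1.11 to -0.27 without 1 cow. For CAR minus ICAR it was 0.047 with the slide as a block and -0.22 to 0.26 without 1 cow, the RB difference between CAR and ICAR was -0.88 to 0.031 and that between horns -0.31 to 0.090. Signs also turned for uncalled values of MT-1A, MT-2, MT3 and SLC39A5. With the slide as a block MT-1A and MT-2 were -0.0090 and -0.0055 in CAR of the contralateral horn, and MT-1A was -0.022 for CAR minus ICAR and -0.20 between horns (-0.11 without slide 1). With normexp MT3 was -0.19 in ICAR of the contralateral horn and 0.16 for the RB difference between CAR and ICAR (0.045 without slide 1), and SLC39A5 was -0.045 for CAR minus ICAR. Without 1 cow, CAR minus ICAR was -0.17 to 0.43 for MT-1A, -0.075 to 0.078 for MT3 and -0.030 to 0.21 for SLC39A5. The RB difference between CAR and ICAR was -0.28 to 0.076 for MT3 and -0.12 to 0.45 for SLC39A5, and that between horns -0.14 to 0.23 for MT-1A. In CAR of the contralateral horn MT3 was -0.0016 to 0.29 and SLC39A5 -0.091 to 0.83. In ICAR of that horn MT-1A was -0.58 to 0.14, MT-2 -0.50 to 0.22, MT3 -0.072 to 0.44 and SLC39A5 -0.42 to 0.10. In the whole uterus MT3 was -0.23 to 0.017 and SLC39A5 -0.26 to 0.073, and between horns MT-2 was -0.18 to 0.066. RB and non-RB cows are different animals, and with the replicate number shared between them as a replicate block the SLC39A2 difference stayed at -1.26 with a limma unadjusted p of 0.041 in CAR of the ipsilateral horn. The cause of these changes was not tested.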
